A study of Mus musculus with 65 samples.

Results

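The S phase genes are 40 genes of DNA replication that are commonly used as a set to recognise single cells that are copying their genome. They were taken by name from the gene column of the deposited tables, and all 40 were found among the 10407 genes there. They were followed across 65 cells of mouse embryos of the CD1 strain, each drawn into a pipette and made into a library of its own that was sequenced from the 3′ end (Patch-seq). The cells fall into 3 groups, all labelled as neuronal progenitors. In 20 cells from wild-type E12 embryos and 26 cells from wild-type E15 embryos the progenitors had been marked with FlashTag, a fluorescent dye that enters cells at the ventricular surface. The remaining 19 cells were E15 progenitors placed in an E12 brain, whose condition is given as transplanted. The labels name neither embryo nor litter, nor the time between marking or transplantation and collection, so each group counts as 1 sample and no test between groups was made. The study asks whether apical progenitors, the stem cells that line the ventricle of the developing cortex, take on earlier properties in a younger host, and for these genes that is the question of how their level in transplanted cells compares with each age.

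Before S phase, the origin recognition complex, Cdc6 and Cdt1 load the Mcm helicase onto chromatin, and Cdc45 and the GINS complex then switch it on. DNA is copied by polymerases held by the Pcna clamp, while ribonucleotide reductase supplies the building blocks and histone chaperones repackage the daughter strands. Many of these genes are transcribed in a wave at the boundary of G1 and S under E2F factors. Apical progenitors cycle continuously, their S phase nuclei lie away from the ventricle and their mitoses take place at it.

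The E2F recognition sequence is the feature that these genes are best known to share, so their promoters were searched for it, and the stretches around it are shown for 6 members. The letters searched were TTTCCCGC and TTTGGCGC, on both strands, in RefSeq windows (GRCm38.p6) that run from 250 bases before to 50 bases after the start of a gene. The capitals mark the match, written 5′ to 3′ on the strand of the gene, and each stretch ends at or before the start.
Mcm6: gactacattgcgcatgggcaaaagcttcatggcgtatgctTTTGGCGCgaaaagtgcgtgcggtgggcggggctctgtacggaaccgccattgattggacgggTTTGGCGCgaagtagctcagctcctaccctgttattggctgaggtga
Mcm5: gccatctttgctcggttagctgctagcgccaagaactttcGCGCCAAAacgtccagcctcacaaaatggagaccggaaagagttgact
Dtl: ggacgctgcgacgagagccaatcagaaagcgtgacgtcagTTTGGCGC
Casp8ap2: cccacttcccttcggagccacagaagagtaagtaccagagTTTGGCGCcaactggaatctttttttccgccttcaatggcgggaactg
Cdca7: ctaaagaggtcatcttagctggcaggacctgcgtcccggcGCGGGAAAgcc
Pola1: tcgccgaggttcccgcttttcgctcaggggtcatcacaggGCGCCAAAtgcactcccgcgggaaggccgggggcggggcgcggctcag
The Mcm6 stretch is chr1:128359706-128359855 on the minus strand and holds 2 matches, which begin 110 and 47 bases before the start of the gene. Those of Mcm5 (chr8:75109320-75109407, plus strand), Dtl (chr1:191575545-191575592, minus strand) and Casp8ap2 (chr4:32615254-32615341, plus strand) hold 1 each. So do those of Cdca7 (chr2:72476108-72476158, plus strand) and Pola1 (chrX:93632246-93632333, minus strand). All 6 stretches lie before the first exon in the annotation.

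A window was in the table for 30 of the 40 members, 33 windows in all because 3 genes had a pair of starts. Of the 33 windows, 10 held at least 1 match (30.3%). The same letters were in 3.11% of the 10290 windows of genes in the tables and in 1.56% of all 32851 windows of this length. The other 4 members with a match were Hells, Pold3, Cdc6 and Ubr7. Among genes of replication outside the 40, 12 of 51 windows held a match (23.5%), and among genes of G2 and M phase 2 of 52 did (3.85%). A match is a description of the letters and says nothing of whether a factor binds there. In E15 over E12 cells the median log2 ratio of the 10 members with a match was -1.07, and that of the 20 members whose windows held none was -0.97.

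Levels are given as CPM, counts per 1000000 reads in the 10407 genes, from whole reads that were recovered from the deposited log10 values. For a group the reads of its cells were added, and differences are log2((CPM + 1)/(CPM + 1)). A member was called where this was at least 1 in size, that is about 2-fold. Since a call is not a test, the share of all genes that pass it is given with the counts over whole lists where it was taken. Cells held between 10928 and 4560871 reads and between 2016 and 10197 genes. Of these libraries, 16 stood apart with more than 8000 genes: 11 of E15 cells, 5 of transplanted cells and none of E12 cells. In the 11 E15 libraries the summed level of 14 apical progenitor markers had a median of 1755 CPM, against 15285 CPM in the other 15. Their 10 neuron markers had a median of 4888 CPM against 808.9 CPM, and their microglia and macrophage markers 2790 CPM against 118.6 CPM. Their ventral interneuron markers had a median of 3494 CPM against 541.8 CPM. The red blood cell markers, of which 3 of 7 were in the tables, were at 16.53 CPM against 66.04 CPM. In the 5 transplanted libraries the apical progenitor and neuron medians were 2184 and 5704 CPM against 6364 and 1436 CPM in the other 14, but the microglia and macrophage median was lower, at 27.61 against 373.7 CPM. The ventral interneuron median was 2709 against 662.3 CPM there, and the red blood cell median 76.68 against 5303 CPM. The main results are also given without these 16 libraries, and the part of these markers in the results was not tested. All 14 apical progenitor markers had reads in each group. Reads copied by polymerase chain reaction carried no molecular identifiers and cannot stand for separate molecules, so 95% intervals of reads cover counting error only. Intervals of a share of cells cover the counting of these cells only.

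The summed level of the 40 genes was higher in E12 cells than in either E15 group, with wide overlap between cells. In E12 cells it ranged from 987.5 CPM to 15352 CPM with a median of 8188 CPM. In E15 cells it ranged from 473.4 CPM to 11704 CPM with a median of 3902 CPM, and in transplanted cells from 697.3 CPM to 10837 CPM with a median of 5329 CPM. The transplanted median lay between those of the ages, and 4 E12 cells, at 13656 to 15352 CPM, stood above every cell of the other groups.

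**Figure D1:**
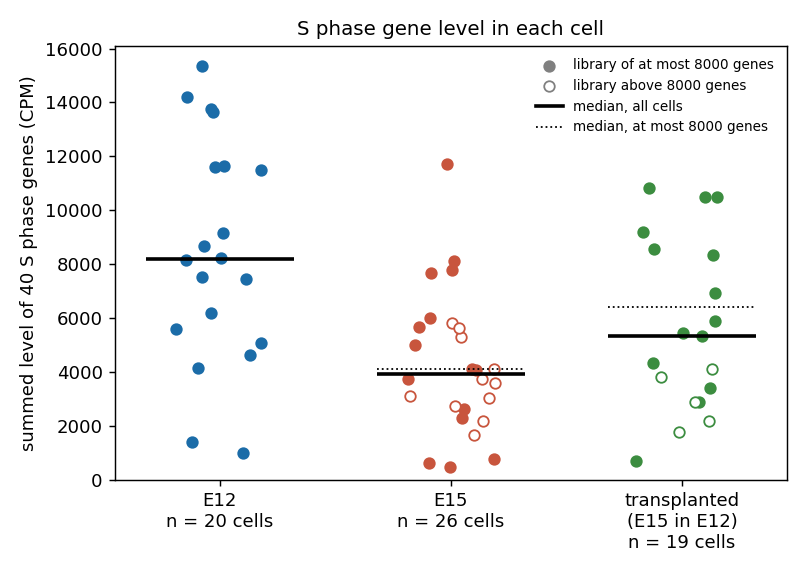
Summed level of the 40 S phase genes in CPM (vertical axis, linear) in each of 65 cells by group; filled points are libraries of at most 8000 genes, open points libraries above it, solid lines are medians of all cells and dotted lines medians of the libraries of at most 8000 genes, with no error attached. The E12 median is 8188 CPM, the E15 median 3902 CPM and the transplanted median 5329 CPM, and the 16 open points lie between 1668 and 5812 CPM.

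Of the 20 E12 cells, 15 lay above 5329 CPM, the median of all 65 cells (75%, exact binomial interval 50.9 to 91.3%). Of the 26 E15 cells 8 did (30.8%, 14.3 to 51.8%), and of the 19 transplanted cells 9 did (47.4%, 24.5 to 71.1%). Within 20% of that value lay 4 E12, 6 E15 and 4 transplanted cells, so the counts depend on where the line is drawn. Cells are not replicates of a group, so these intervals make no comparison between groups.

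Leaving out the libraries above 8000 genes moved the transplanted median more than the E15 median. Without them the median of the remaining 15 E15 cells was 4099 CPM and that of the remaining 14 transplanted cells 6408 CPM, and 6 of 15 and 9 of 14 lay above 5329 CPM. All 16 left-out libraries lay at or under 5812 CPM. With each cell thinned to 25000 reads, so that all have 1 depth, the medians of E12, E15 and transplanted cells were 8040, 4200 and 4560 CPM, in 18, 24 and 17 cells deep enough for it. Before thinning, the same 18, 24 and 17 cells had medians of 7828, 4086 and 4339 CPM, and the 2 transplanted cells too shallow for it were at 8543 and 9195 CPM.

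Neuron and red blood cell markers were high in some of the lowest cells, and red blood cell markers also in some cells with higher sums. The 2 lowest E12 cells, at 987.5 and 1394 CPM, carried 4911 and 4089 CPM of neuron markers, the highest values among E12 cells, and the lowest of them also carried the most red blood cell markers of its group, 8821 CPM. The lowest E15 cell, at 473.4 CPM, likewise carried 5349 CPM of neuron markers and 15574 CPM of red blood cell markers. The next E15 cell, at 608.0 CPM, carried 526.9 CPM of neuron markers, under the E15 median of 3468 CPM, and 1702 CPM of red blood cell markers. The E15 cell after it, at 761.3 CPM, carried 8817 CPM of neuron markers. The lowest transplanted cell, at 697.3 CPM, carried 308.1 CPM of neuron markers, near the low end of its group. Its red blood cell markers, 1330 CPM, lay under the transplanted median of 1967 CPM. Transplanted replicates 19 and 12, with S phase sums of 8350 and 6941 CPM, carried 18053.5 and 13623 CPM of red blood cell markers. Whether these markers have a part in the low values was not tested.

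Added over cells, the 40 genes took 7717 CPM in E12 cells (7640 to 7795, exact Poisson), 3916 CPM in E15 cells and 4712 CPM in transplanted cells. The mean of the cells' own CPM, which gives each cell equal weight, was 8444, 4285 and 5658 CPM. After thinning, no cell showed the whole set: the highest had reads of 35 members at E12, 33 at E15 and 31 after transplantation. Unthinned, the highest E15 and transplanted cells had reads of all 40. The median cell after thinning had reads of 20 members at E12, 23 at E15 and 24 after transplantation. Unthinned the medians were 23, 34 and 30 in the same cells and 22, 34 and 28 in all cells. These orders differ from that of the summed level. Without the libraries above 8000 genes the thinned medians were 20, 15 and 19, the order of the summed level, and the unthinned medians 22, 25 and 25.5.

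Between E12 and E15, 36 of the 40 members were lower at E15 and 4 were higher. The call was passed by 19 members in the lower direction and by 1, Clspn, in the higher. Of all 10407 genes 20% passed it in the lower and 25.6% in the higher direction, so the share of members called lower (19 of 40) stood above the background and the share called higher below it. The median log2 ratio of the members was -0.97 and that of all genes -0.01. Without the libraries above 8000 genes 35 members were lower, 16 of them by the call against 21.1% of all genes, 2 were called higher against 24.2% of all genes, and the median was -0.89. In the deposited log10 values, which lack 2 directions over cells, the median was -0.29, with 26 members lower and 14 higher. There 3 were called lower, against 1.04% of all genes. Those directions hold 24.15% of the variance of E12 membership, 41.26% of that of log10 total reads and 74.45% of that of genes detected.

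**Figure D2:**
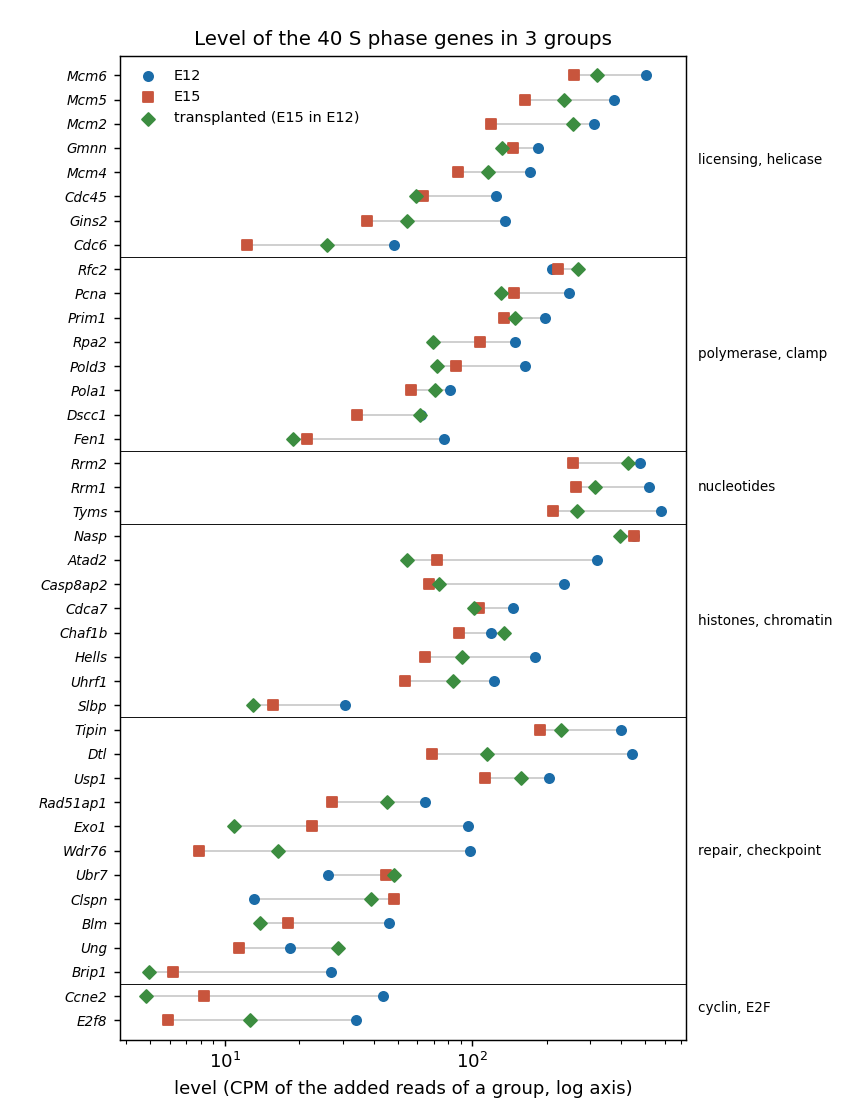
Level of each of the 40 S phase genes (rows, grouped by role) as CPM of the added reads of a group on a log axis; circles are E12, squares E15 and diamonds transplanted cells, 1 value per group with no error attached. Circles lie to the right of squares in 36 of the 40 rows.

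The first role is the loading and starting of the helicase, with 8 members, of which all were lower at E15, and their median log2 ratio was -1.08. Mcm6 (chr1:128331590-128359664, minus strand, GRCm38), a subunit of the Mcm helicase, ranged over E12 cells from 0 to 2196 CPM with a median of 417.2 CPM. Over E15 cells it ranged from 0 to 960.8 CPM with a median of 253.6 CPM, and over transplanted cells from 0 to 1636 CPM with a median of 306.3 CPM. The groups overlapped over most of their range, and the ratio of the added CPM of E15 to E12 cells was 0.516 (0.493 to 0.539), the transplanted over E15 ratio 1.24 (1.20 to 1.29). Mcm5, another subunit of the same ring, had medians of 355.5 CPM in E12, 118.9 CPM in E15 and 194.6 CPM in transplanted cells, with highest cells at 1210, 671.5 and 1248 CPM. Its lowest cell was at 0 in every group, and the transplanted median lay between the other two. Mcm2, Cdc6, the loading factor, and Gins2, a GINS subunit, were called lower at E15 as was Mcm5. These were 4 of the 8, where 20% of all genes were called lower. Mcm4, Mcm6 and Cdc45 lay just short of the call, between -0.95 and -0.97. Gmnn, which encodes geminin, the inhibitor of reloading, had the smallest difference of this role at -0.34.

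The polymerases, the clamp and their helpers also gave 8 members, with a median of -0.64 and 7 of 8 lower at E15. Pcna, the clamp, had a lowest cell of 0 in every group and medians of 275.9 CPM in E12, 126.1 CPM in E15 and 104.6 CPM in transplanted cells. Its highest cells were at 795.2, 691.2 and 358.3 CPM, and reads were found in 19 of 20, 23 of 26 and 18 of 19 cells. Unlike Mcm5 and Mcm6, Pcna had its lowest median in transplanted cells. Rfc2, a subunit of the loader that places the clamp, had medians of 247.0, 203.3 and 258.3 CPM in the same order and highest cells of 1656, 875 and 670.9 CPM. Its ratio of E15 to E12 cells, 1.06 (0.991 to 1.13), was the only one of this role above 1, and the mean CPM of cells put it lower at E15 instead, at -0.66. Fen1, the nuclease that trims Okazaki fragments, was the 1 member of 8 called lower here, at -1.79, where 20% of all genes were. Prim1, Pola1, Pold3, Rpa2 and Dscc1 lay between -0.91 and -0.46.

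All 3 genes of nucleotide supply were lower at E15, between -1.44 and -0.90. Rrm1, the large subunit of ribonucleotide reductase, had medians of 447.0, 238.0 and 322.5 CPM in E12, E15 and transplanted cells, with highest cells of 2104, 1187 and 2661 CPM. Rrm2, the small subunit, whose level is known to follow S phase, had medians of 332.4, 160.2 and 250.6 CPM and highest cells of 1556, 748.7 and 1248 CPM. Both had a lowest cell of 0 in every group, and for both the transplanted median lay between the ages. Tyms, which encodes thymidylate synthase, was the 1 of these 3 called lower, where 20% of all genes were.

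Among 8 genes of histone supply and chromatin, 7 were lower at E15, with a median of -1.05. The call was passed in this direction by 4 of the 8, against 20% of all genes. Nasp, a histone chaperone, differed least of all 40 genes: its medians were 370.6 CPM in E12, 454.0 CPM in E15 and 390.4 CPM in transplanted cells. Its highest cells were at 2259, 1375 and 1004 CPM, and the E15 to E12 ratio was 1.01 (0.962 to 1.05). Atad2, a chromatin ATPase, was among the members with the largest differences, with medians of 142.4, 41.42 and 49.42 CPM and highest cells of 1725, 390.6 and 178.9 CPM. Its ratio was 0.226 (0.212 to 0.240) in E15 over E12 and 0.170 (0.156 to 0.187) in transplanted over E12 cells. Casp8ap2, Hells and Uhrf1, the last a partner of maintenance methylation, were also called lower at E15, and Slbp, Cdca7 and Chaf1b were lower by less than the call.

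The 11 genes of repair and the checkpoint held both the largest lower and the largest higher differences. Dtl (chr1:191537356-191575544, minus strand), which directs a ubiquitin ligase to chromatin-bound Pcna, had medians of 236.0, 48.75 and 22.90 CPM in E12, E15 and transplanted cells. Its highest cells were at 1337, 923.6 and 359.4 CPM. In added reads it stood at 440.7, 68.63 and 115.2 CPM, a ratio of 0.156 (0.147 to 0.165) in E15 over E12 cells, and 43.8% of the E12 reads came from 1 cell, E12 replicate 5. Without that cell E12 held 370.2 CPM, still above either E15 group. The transplanted level leaned on transplanted replicate 19. Without it the log2 ratio went from 0.739 to -0.369 over E15 cells and from -1.926 to -3.035 over E12 cells.

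Wdr76 (chr2:121506723-121544860, plus strand), a chromatin-bound WD repeat protein, had the lowest log2 ratio of E15 over E12 cells, -3.48, from 97.73 to 7.84 CPM. The same E12 replicate 5 gave 79.5% of its E12 reads, and without it the E12 level was 29.94 CPM and the log2 ratio -1.81. It was found in 6 of 20 E12, 15 of 26 E15 and 9 of 19 transplanted cells, with medians of 0, 1.34 and 0 CPM and highest cells of 234.8, 42.22 and 102.2 CPM. The size of this difference rests on 1 library, and the direction was the same without it.

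Tipin, part of the complex that steadies the fork, had medians of 342.2, 172.2 and 222.2 CPM and highest cells of 915.1, 771.3 and 771.7 CPM, each group beginning at 0. Exo1, an exonuclease of mismatch repair, was found in 7, 16 and 6 cells, with a median of 0, 8.27 and 0 CPM and highest cells of 464.5, 191.8 and 77.59 CPM. In added reads Exo1 was lowest in transplanted cells, 10.93 CPM against 22.47 CPM in E15 and 96.51 CPM in E12 cells. Ung, which removes uracil from DNA, stood at 18.41, 11.42 and 28.62 CPM, but its median cell was at 0 in every group and its highest cells were at 2166, 54.08 and 281.1 CPM.

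Clspn (chr4:126556935-126593903, plus strand), which encodes claspin, the adaptor that passes the stalled fork signal to the checkpoint kinase, went the other way. It was found in 3 of 20 E12, 15 of 26 E15 and 8 of 19 transplanted cells, with medians of 0, 11.91 and 0 CPM and highest cells of 233.1, 939.4 and 506.5 CPM. Its added level was 13.15, 48.16 and 38.93 CPM, a ratio of 3.66 (2.86 to 4.77) in E15 over E12 cells. Leaving out any 1 cell kept its log2 ratio between 1.38 and 3.08, and leaving out pool E, 1 of 8 library pools in the labels, gave 0.93. Ubr7 was also higher, at 0.76, and Blm, Brip1 and Rad51ap1 were called lower while Usp1 lay at -0.85. In this role 7 of 11 were called lower and 1 higher, against 20% and 25.6% of all genes.

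The last role, a cyclin and a member of the E2F family, was sparse. Ccne2, a partner of the kinase that starts S phase, was found in 4, 10 and 3 cells, and its highest cells were at 464.4, 187.5 and 62.07 CPM. E2f8, a repressor of E2F targets late in S phase, was found in 7, 12 and 7 cells with highest cells at 382.2, 27.32 and 74.13 CPM. The median cell was at 0 for both genes in all 3 groups. In added reads Ccne2 stood at 43.50, 8.27 and 4.80 CPM and E2f8 at 33.99, 5.90 and 12.66 CPM. Both were called lower at E15, where 20% of all genes were. Over left-out cells the E15 over E12 log2 ratio of Ccne2 ran from -2.83 to -1.49, the latter without E12 replicate 9. That of E2f8 ran from -2.91 to -1.90. Without transplanted replicate 19 the transplanted over E15 log2 ratio of E2f8 moved from 0.99 to 0.03.

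Transplanted and E15 cells differ in the age of the host and in the transplantation itself. No group holds E15 cells placed in an E15 brain, so these cannot be told apart. In transplanted over E15 cells 25 of 40 members were higher and 15 lower. Their median log2 ratio was 0.27, that of all genes -0.08. The call was passed by 3 members in the higher direction, Mcm2, Cdc6 and Ung, against 4.70% of all genes, and by none in the lower, against 11.7%. Without the libraries above 8000 genes 28 members were higher, 13 of them by the call against 18.5% of all genes, and 5 were called lower against 28.0%, with a median of 0.77. The summed level was then 7482 CPM in transplanted and 4568 CPM in E15 cells. Nucleotide supply and helicase loading had the highest medians over all cells, 0.32 and 0.45, and the polymerases and histone genes lay at -0.01 and 0.03.

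**Figure D3:**
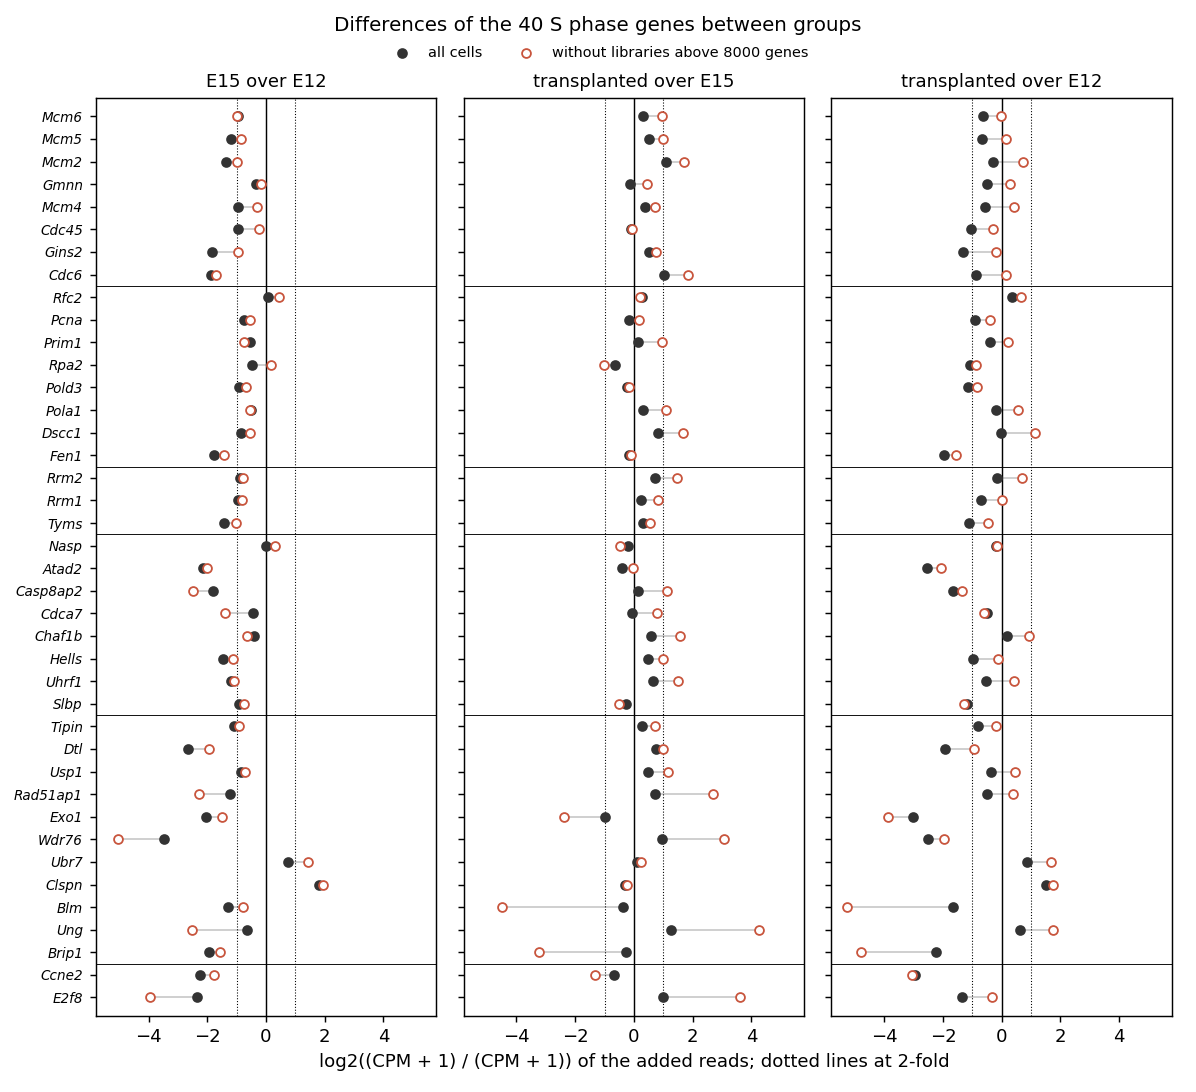
Log2 ratio of the CPM of added reads, pseudocount 1 CPM, for each of the 40 S phase genes (rows, grouped by role as in the plot of levels) in 3 comparisons; filled points are all cells, open points leave out libraries above 8000 genes, dotted lines mark 2-fold, and there is 1 value per point with no error attached. In E15 over E12 most points of either kind lie left of 0, while in transplanted over E15 the open points lie further right than the filled ones for most members.

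This difference leaned on 1 library. Transplanted replicate 19, from pool A, held 2584656 reads, 62.2% of the S phase reads of the 14 transplanted libraries of at most 8000 genes, and more than 50% of the reads of 27 members there. Without it the median over all cells was -0.05, where 15 members were higher and 25 lower, and Mcm2, Cdc6 and Ung were at 0.14, -0.03 and -0.39. With it, the libraries above 8000 genes and E12 replicate 5 all left out, the median was 0.35 with 27 members higher and the all-gene median -0.29. On mean CPM of cells, which gives replicate 19 the weight of 1 cell, Mcm6, Mcm5, Rrm1, Rrm2 and Tipin were at 0.73, 0.87, 0.49, 0.72 and 0.70, and Pcna, Nasp and Dtl at -0.06, -0.07 and -0.54.

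By pool, the summed level was lower in E15 than in E12 cells in 7 of 8 pools. The exception was pool A, with 5139 CPM in 3 E15 cells and 2649 CPM in 3 E12 cells. Transplanted cells were lower than E15 cells in 2 of the 7 pools that hold both, and lower than E12 cells in 5 of 7. The median log2 ratio of the members was below 0 in fewer pools for E15 over E12, 6 of 8, and for transplanted over E12, 4 of 7. For transplanted over E15 it was below 0 in 3 of 7. In pool H the E15 sum was lower than the E12 sum, 5271 against 14184 CPM in 1 E12 cell, while the member median was 2.47. Pools hold 1 to 5 cells of a group, and 2 of the 23 entries rest on a single cell. When ratios were taken in each pool and then averaged, the transplanted over E15 median of the members turned to -0.45, with 5 called lower and 0 higher, while that of all genes was -0.62, with 31.7% called lower and 2.998% higher.

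In transplanted over E12 cells 35 members were lower and 5 higher, and 16 and 1 (Clspn) passed the call, against 23.7% and 24.1% of all genes. The median was -0.76 against -0.04 for all genes. Without the libraries above 8000 genes it was -0.14, with 18 members higher and 22 lower, 9 called lower against 28.9% of all genes and 4 called higher against 22.3%. The helicase genes were then at a median of 0.15 and the histone genes at -0.38. Atad2, Exo1 and Ccne2 stayed below E12 by the call, at -2.07, -3.88 and -3.07, and Brip1 had no read in these 14 transplanted cells, where 3 counts would be 0.647 CPM. With replicate 19 and E12 replicate 5 left out as well the median was -0.49. The 3 comparisons share groups of cells, so their values are not independent of each other.

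Genes of replication outside the 40 were given the same measure, 50 of a list of 51 being in the tables. In E15 over E12 cells 41 of 50 were lower, 20 by the call where 20% of all genes were, with a median of -0.84, and without the libraries above 8000 genes 37 were lower with a median of -0.83. The best covered, Dut, which keeps uracil out of DNA, and Mcm7, a helicase subunit, stood at 726.4 and 692.0 CPM in E12 and 353.2 and 355.8 CPM in E15 cells. The E2F repressor E2f7 and thymidine kinase Tk1 had the largest differences at 20 CPM or more, with log2 ratios of -2.44 and -2.25. In transplanted over E15 cells 32 of 50 were higher, with a median of 0.12 that was 0.44 without the libraries above 8000 genes and turned to -0.13, with 17 higher, without transplanted replicate 19. Pole2, a polymerase epsilon subunit, and Cenpu had the largest log2 ratios there at 20 CPM or more, 1.30 and 1.24, but that 1 library gave 65.9% and 62.1% of their transplanted reads and without it they were at 0.17 and 0.23. In transplanted over E12 cells the median was -0.75, and -0.20 without the libraries above 8000 genes, and E2f7 and Topbp1 were at -2.76 and -2.02.

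The G2 and M phase genes, which serve mitosis and are the set most like these in use, were on balance higher at E15 over all cells. Of 53 genes found, 37 were higher at E15 than at E12, with a median of 0.44. The call was passed by 15, a share near the 25.6% of all genes. Without the libraries above 8000 genes 27 were higher with a median of 0.01, and with E12 replicate 5 left out as well 22 were, with a median of -0.36. Cdc20, the activator of the anaphase-promoting complex, stood at 44.31 CPM in E12, 344.1 CPM in E15 and 305.7 CPM in transplanted cells. Hmmr, which encodes a spindle protein, had a log2 ratio of E15 over E12 of 2.74, and the well covered Hn1 and Tmpo were at 1.10 and -0.08. In transplanted over E15 cells the median was -0.13 and turned to 0.43 without the libraries above 8000 genes, and Lbr was at -2.21. In transplanted over E12 cells it was 0.43, and 0.48 without those libraries. With transplanted replicate 19 and E12 replicate 5 left out as well, these medians were -0.048 and -0.15.

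Set against each other in single cells, 9 of 20 E12 cells lay above the 65-cell median of the S phase sum and not above that of the G2 and M phase sum, against 3 of 26 E15 and 3 of 19 transplanted cells. Cells above only for G2 and M phase genes numbered 1, 8 and 6 in the same order. Both sums were above in 6, 5 and 6 cells, and neither in 4, 10 and 4. Of the 8 E15 cells in the G2 and M class 7 were libraries above 8000 genes, since 1 of the remaining 15 was in it. The Spearman correlation of both sums was 0.25 over 65 cells and 0.58 over the 26 E15 cells, points that share library depth and the total by which they are divided.

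**Figure D4:**
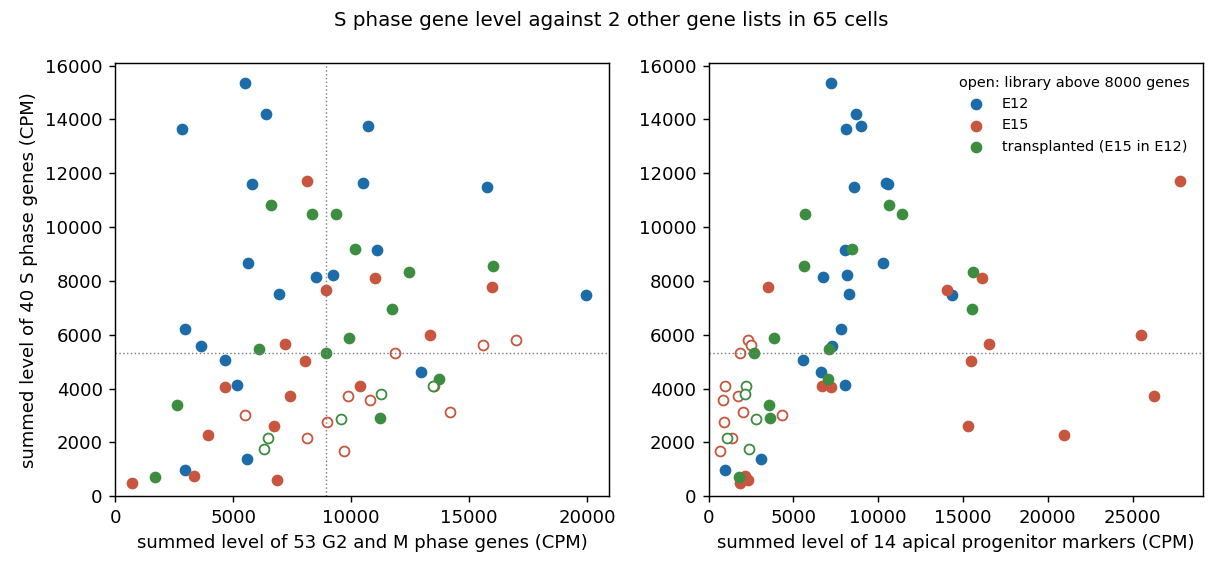
Summed level of the 40 S phase genes (vertical axis, CPM) against that of 53 G2 and M phase genes (left) and of 14 apical progenitor markers (right) in 65 cells; open points are libraries above 8000 genes and dotted lines are 65-cell medians. The upper left of the first panel holds 9 E12 cells and 3 cells of each other group, and all open points of the second panel lie at or under 4308 CPM of apical progenitor markers.

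Across cells most members varied in 1 direction. Each member was set against the summed CPM of the other members, and 37 of 40 correlations were positive over 65 cells with a median Spearman rho of 0.34, against -0.10 for the remaining genes in the tables. The highest were those of Pcna (0.77), Tipin (0.60), Mcm5 (0.57), Mcm2 (0.57) and Mcm6 (0.54), and those below 0 were Brip1, Exo1 and Clspn, found in 19, 29 and 26 cells. With the S phase sum over 65 cells, the other replication genes had a median rho of 0.24 and the G2 and M phase genes 0.04. Without the libraries above 8000 genes the members' median was 0.39, against 0.06 for the remaining genes and 0.31 for the other replication genes. The members' median was 0.26 within E12, 0.44 within E15 and 0.35 within transplanted cells, against -0.02, 0.02 and -0.07 for the remaining genes. In the 14 transplanted cells of at most 8000 genes it was 0.40, against 0.21 for the remaining genes and 0.39 for the other replication genes. The S phase sum of these 14 cells had a rho of 0.70 with the number of genes detected and -0.02 with reads. Over 65 cells its rho with genes detected was -0.16. All of these points share the total reads of their cell.

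The S phase sum also followed the apical progenitor markers, with a rho of 0.62 over 65 cells and 0.58, 0.50 and 0.81 within E12, E15 and transplanted cells. With the neuron markers it was -0.53 over 65 cells. Without the libraries above 8000 genes both were weaker over 49 cells, at 0.43 with the apical progenitor markers and -0.33 with the neuron markers. In the 15 E15 cells left they were 0.51 and -0.54, near the 0.50 and -0.55 of all E15 cells. In the 14 transplanted cells left they were 0.68 and 0.033, against 0.81 and -0.29 in all transplanted cells. In these 14 cells the rho of the S phase sum with the number of genes detected was as high, at 0.70. The median of the apical progenitor markers was 15285 CPM in the 15 E15 libraries of at most 8000 genes and 8073 CPM in E12 cells. The medians of the S phase sum were 4099 and 8188 CPM in the same order. In the 14 transplanted libraries of at most 8000 genes the marker median was 6364 CPM and the S phase median 6408 CPM. Whether the content of progenitor RNA has a part in the S phase level was not tested.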

How the data were processed

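Each of the 65 libraries is 1 cell. Per the labels' protocols they were made with the SMART-Seq v4 3' DE kit and Nextera XT, and per the submitters' processing notes STAR, HTSeq and mm10 were used, without versions or settings. The values deposited by the authors are log10 values centred over cells and lacking 2 further directions over cells, as the values themselves show (rank 62 of 65). The analysis had been designed for counts, and whole reads were recovered instead: 9865 genes from their cells at 0 and 542 by a search for whole numbers, with 100% of 356667 non-zero values within 0.01 of a whole number. The recovery and the ratios were tested on simulated data.

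Groups came from the age given in the labels. Reads were added over the cells of a group and scaled to CPM (pseudocount 1 CPM), with no filter on low values. Intervals are exact Poisson, exact binomial and conditional binomial. The members and lists were chosen with earlier results of these data known, as was the limit of 8000 genes. Values per cell are given for the 2 members of each role with the highest mean CPM and for the largest ratio in each direction of each comparison at 20 CPM or more. From the 2 other lists, the 2 genes with the highest mean CPM and the 2 with the largest ratio are named. Promoters were printed for up to 6 members with the highest mean CPM and a match. Hells and Pold3 were passed over because their match lies in an exon. Orc1 and Cks2 were not analysed here, and Pimreg and Jpt1 were found as Fam64a and Hn1. Coordinates of genes are GRCm38 in GENCODE vM21. Tables were handled with pandas 2.3.3 in Python 3.11.15 and computed with NumPy 2.4.6 and Numba 0.67.0. Exact intervals came from SciPy 1.17.1, and plots from Matplotlib 3.10.9. Alternatives changed the weight of cells, depth, scaling, pseudocount, filter, libraries, pools and single cells.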

Additional observations from a re-analysis of the deposited data

How the results depend on the processing

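No paired analysis was possible because the replicate numbers only name cells in accession order and pair none. The groups share pools, and these were used in the mean of ratios within pools. The setting without libraries above 8000 genes was itself chosen with earlier results known. The 2 settings that combine it with the mean CPM of cells or with the largest libraries left out were chosen after seeing the data. Where a value moved, the cause was not tested.

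In E15 over E12 cells the median of the S phase genes was below 0 under every alternative run. It moved to -0.29 in the deposited log10 values, with 3 genes called lower and 0 higher (all genes 1.04% and 2.81%), while as a mean of ratios within pools 10 were called lower and 3 higher (all genes 3.22% and 59.3%, median 1.31). Called higher were 2 without libraries above 8000 genes and without pool B, F or G, and 0 without pool E (all genes 25.04 to 30.26% over left-out pools). Within pools the medians of the other replication and of the G2 and M phase genes were -0.061 and 1.47. Leaving out 1 cell gave S phase medians of -1.10 to -0.91, with 18 to 25 called lower and 1 to 2 higher (all genes 19.47 to 21.12% and 25.43 to 28.34%). It gave other replication medians of -0.95 to -0.77 and G2 and M phase medians of 0.35 to 0.76. Ccne2 was at 0.045 in the deposited values and 0.45 within pools, and Exo1 at 0.085 within pools.

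In transplanted over E15 cells the direction of the S phase median turned to -0.45 within pools, -0.10 without pool A and -0.054 without transplanted replicate 19, the lowest of a range to 0.39 over left-out cells. Called lower and higher were 5 and 6 on mean CPM of cells (all genes 19.1% and 11.8%) and 5 and 10 on that without libraries above 8000 genes (25.6% and 22%). Without those libraries on added reads they were 5 and 13 (28.0% and 18.5%). With the largest E12 and transplanted libraries left out as well they were 4 and 11, and no share of all genes was taken for that setting. They were 5 and 0 within pools (31.7% and 2.998%) and 1 and 5 with a pseudocount of 0.1 CPM (13.1% and 5.49%). Called lower were 5 after thinning (23.5%), 1 without pool B, C, E, F or H and 2 without pool G (9.85 to 14.97% over left-out pools). Called higher were 5 with median of ratios size factors (5.55%) and without pool D, 0 without pool A, 6 without pool C and 7 without pool H (3.10 to 6.93%). Left-out cells gave 0 to 2 called lower and 1 to 6 higher (all genes 10.27 to 14.8% and 3.488 to 6.755%). The other replication median was -0.030 in the deposited values, -0.38 within pools and -0.16 without pool A, and -0.13 to 0.22 over left-out cells. The G2 and M phase median was 0.43 without libraries above 8000 genes, 0.10 on mean CPM without them, -0.74 within pools and 0.067 without pool C, and -0.30 to 0.0042 over left-out cells. Ung was at -0.14 within pools, -0.37 without pool A and -0.39 without transplanted replicate 19, the lowest of a range to 1.54 over left-out cells.

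In transplanted over E12 cells the S phase median was -0.13 in the deposited values with 1 called lower (all genes 1.86%), -0.14 without libraries above 8000 genes with 9 lower and 4 higher (28.9% and 22.3%), and -1.35 without pool A with 29 lower (24.6%). Called higher were 2 on mean CPM of cells with or without those libraries, after thinning, without cells under 25000 reads, within pools and without pool B, C or G. They were 3 without pool D or F, 0 without pool E and 3 without the libraries above 8000 genes and the largest left. No share of all genes was taken for the last of these settings. All genes called higher were 21.3 to 23.6% on mean CPM and after thinning, 24.3% without shallow cells, 43.8% within pools and 23.3 to 28.3% over left-out pools. Left-out cells gave medians of -1.09 to -0.63, with 13 to 24 called lower and 1 to 2 higher (all genes 22.43 to 24.61% and 23.65 to 26.46%). They gave other replication medians of -0.88 to -0.52 and G2 and M phase medians of 0.30 to 0.82. The G2 and M phase median was -0.035 after thinning, -0.027 in the deposited values and -0.011 on mean CPM without libraries above 8000 genes. Wdr76 was at 0.045 in the deposited values and 0.29 within pools.

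With the shorter letters GCGGGAA or GCGCCAA 51.5% of the members' windows held a match, against 12.5% of windows of genes in the tables and 6.81% of all windows. Without thinning the median E15 cell had reads of 34 members.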
